A study of Mus musculus with 12 samples.

Results

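The comparison described here is that of resting monocytes from succinate-treated mice with resting monocytes from control mice. It takes 6 of the 12 libraries of the series, chosen by their titles: 3 of unstimulated monocytes from mice given 300 mM succinate over 7 days, and 3 of unstimulated monocytes from mice given none. The cells of all groups were CD11b+ Ly6C-high monocytes sorted from mouse bone marrow and kept in culture, and these 6 libraries had no lipopolysaccharide (LPS). The labels give neither the strain, sex and age of the animals nor the route of the succinate, nor whether each of the 3 libraries was made from its own mouse. The spread behind the p-values is thus that of these 3 libraries per group, and part of it may be technical. The other 6 libraries are the same cells after 4 h of LPS and entered the estimate of the spread between libraries.

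Succinate is made and used inside mitochondria, in the tricarboxylic acid (TCA) cycle, where succinate dehydrogenase, which is also complex II of the respiratory chain, oxidises it to fumarate. Succinate outside the cell is sensed by the receptor Sucnr1, while succinate that builds up inside the cell is known to inhibit dioxygenases that depend on 2-oxoglutarate, among them the prolyl hydroxylases that mark the transcription factor Hif-1 alpha for destruction. Ly6C-high monocytes are the classical blood-borne precursors of inflammatory macrophages. In macrophages, interleukin 4 (IL-4) acts through its receptor chain Il4ra and the transcription factor Stat6 to drive the alternative programme, and Hif-1 alpha drives glycolysis and interleukin 1 beta.

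Levels below are CPM, counts scaled to a common library size with TMM factors, with SD over 3 libraries where ± follows a level. Differences are log2 fold changes, succinate minus control, with ± SE. The 6 libraries held 16144693 to 17160297 counts each and 19525 to 20486 genes with a count. Markers of the sorted cell were present in all 6: Ly6c2 lay at 485 to 621 CPM, the chemokine receptor Ccr2 at 55.9 to 132 and Itgam, which encodes CD11b, at 157 to 192. Libraries of the same group correlated at 0.978 to 0.987 across genes (Pearson, log2 CPM), and libraries of different groups at 0.978 to 0.988, so the groups did not separate by that measure. On the first principal component, which held 31.9% of the variance, replicate 2 of the succinate group lay farthest out at 40.2, followed on the same side by its replicate 1 at 22.2. On the second (23.8%), replicate 1 of the control and of the succinate group lay on one side, at 28.2 and 27, and replicate 2 of the succinate group on the other, at -28.8. That replicate 2 thus stood apart on both components. Medians of gene lists at rest, and differences of the protein-coding genes of the paired fit below, are given with and without that library.

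No gene passed the test between the resting groups. Of 14324 genes tested, 0 were higher and 0 lower in succinate monocytes at a Benjamini-Hochberg adjusted p below 0.05 (edgeR quasi-likelihood test), a background of 0% in each direction. An unadjusted p below 0.05 was reached by 535 genes (3.73%), of which 296 (2.07%) had a higher and 239 (1.67%) a lower fitted level with succinate. The smallest adjusted p was 0.601, for the processed pseudogene Gm10705, and the next was 0.958. The 3 succinate libraries did not overlap the 3 control libraries for 1134 genes (7.92%), with 523 higher (3.65%) and 611 lower (4.27%). DESeq2 called 1 gene higher, Gm10705 at an adjusted p of 3.06e-05, and 0 lower, with 552 genes at an unadjusted p below 0.05. limma-voom called 0 in each direction, with 538.

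The unadjusted count depended on single libraries: 235 genes without replicate 2 of the succinate group, 1842 without replicate 3 of that group and 331 without replicate 3 of the control group, while the adjusted count was 0 in each direction in all 3 cases. The fit had a median SE of 0.19 over all genes and 0.14 over the 8397 genes with at least 10 CPM in either group. Among those better measured genes, the 95% interval of the difference lay within a 2-fold change in either direction for 8238 (98.1%) and within 1.5-fold for 6844 (81.5%). Only 6 of them, 3 higher and 3 lower, had a fitted difference over 2-fold.

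**Figure D1:**
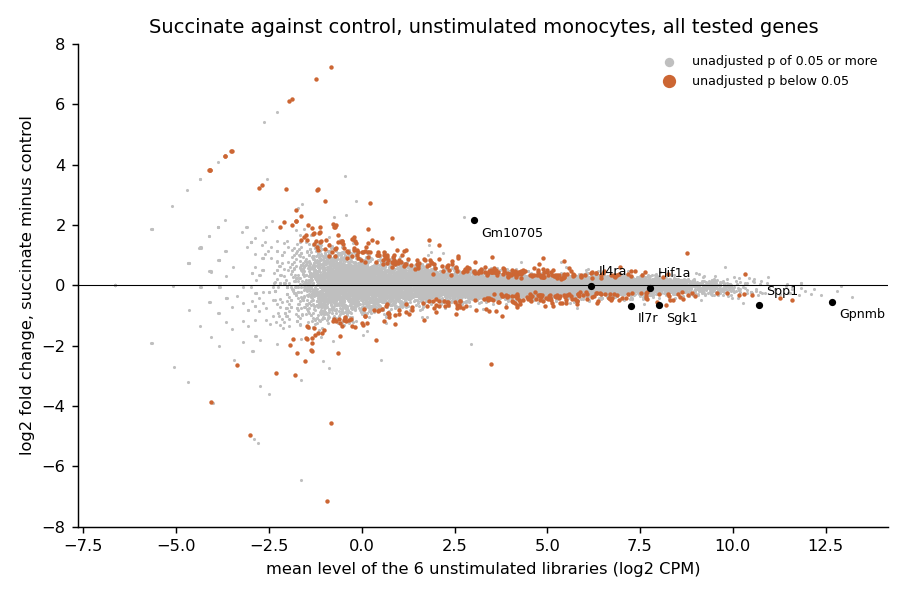
Each point is 1 of the 14324 tested genes. The horizontal axis is its mean level in the 6 unstimulated libraries (log2 CPM), and the vertical axis is the log2 fold change of succinate against control. Orange points have an unadjusted p below 0.05, no point has an adjusted p below 0.05, and the spread narrows to the right, where Hif1a and Il4ra lie close to 0.

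The receptor that senses succinate outside the cell was not detected. Sucnr1 had 0 counts in all 6 libraries together, which allows a level of up to 0.0299 CPM (3 counts, counting error only). Of the 14 genes of succinate transport and sensing, 11 were measured well enough to test and 0 passed. Slc16a1, a monocarboxylate transporter of the plasma membrane, had 37.3, 38.5 and 39.7 CPM in control replicates 1 to 3 and 67.0, 70.3 and 33.8 in succinate replicates 1 to 3. Replicates 1 and 2 of the succinate group were thus above all controls and replicate 3 below them (0.57 ± 0.25, unadjusted p = 0.0397). Gna11, a G protein alpha subunit, had 14.2 to 15.2 CPM in control and 14.9 to 21.1 in succinate libraries, with overlap. The mitochondrial citrate carrier Slc25a1 had 43.7 to 47.8 CPM in control and 38.5 to 43.7 in succinate libraries, a small gap (-0.15 ± 0.11, adjusted p = 0.958).

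Of 34 TCA cycle and succinate enzymes tested, 0 passed, 13 were fitted above and 21 below 0, and the median difference was -0.012, beside 0.0058 for all genes, and 0.021 without replicate 2 of the succinate group. The groups were apart and higher for 4 members, Idh1, Idh2, Dlst and Pdha1, and apart and lower for 1, Sdhaf2, beside 3.65% and 4.27% of all genes. Of these, Idh1, Dlst and Pdha1 were named after their values were seen. Sdha, the flavoprotein subunit that oxidises succinate, had 168, 160 and 189 CPM in control and 154, 137 and 172 CPM in succinate replicates 1 to 3. The groups overlapped, and the difference was -0.16 ± 0.12, with a 95% interval from -0.41 to 0.09. The iron-sulphur subunit Sdhb had 43.9 to 59.0 CPM in control and 34.2 to 53.8 in succinate libraries (-0.17 ± 0.17). Idh2, the mitochondrial isocitrate dehydrogenase that yields NADPH, had 12.5 to 12.9 CPM in control and 13.2 to 22.2 in succinate libraries (0.42 ± 0.23, adjusted p = 0.958), with replicate 3 of the succinate group highest. Sdhaf2, which helps attach the flavin to Sdha, had 38.6 to 42.3 CPM in control and 31.1 to 37.4 in succinate libraries (-0.20 ± 0.11, adjusted p = 0.958). Acod1, which makes itaconate, an inhibitor of succinate dehydrogenase, had 134 to 181 CPM in control and 106 to 200 in succinate libraries (-0.09 ± 0.20).

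The series addresses IL-4 receptor alpha and Hif-1 alpha, and for the RNA of neither gene was a difference beyond the spread detected at rest. The amount of either protein was not measured in these libraries. Il4ra had 63.7, 84.0 and 72.0 CPM in control and 69.9, 78.7 and 67.4 CPM in succinate replicates 1 to 3. The difference was -0.02 ± 0.22, and its 95% interval ran from -0.49 to 0.44. Stat6, which carries the signal of the receptor to the nucleus, had 346 to 372 CPM in control and 300.2 to 349 in succinate libraries (-0.15 ± 0.10, interval from -0.35 to 0.06). Il13ra1, the partner chain that also binds interleukin 13, was at 5.55 to 8.90 CPM in control and 4.70 to 10.4 in succinate libraries (0.0099 ± 0.32). Of 12 components of IL-4 receptor signalling, 0 passed, with 6 fitted on each side of 0.

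Of 23 IL-4 target genes, 21 could be tested, 0 passed, 7 were fitted above and 14 below 0, and the median was -0.18, and -0.11 without replicate 2 of the succinate group. Chil3, a chitinase-like protein that monocytes also make without IL-4, had 3473, 2109 and 2825 CPM in control and 2123, 2365 and 1797 CPM in succinate replicates 1 to 3, with overlap (-0.42 ± 0.17, unadjusted p = 0.0292). The nuclear receptor Pparg had 45.5 to 53.6 CPM in control libraries and 30.0, 21.5 and 49.9 in succinate replicates 1 to 3 (-0.58 ± 0.25, unadjusted p = 0.0346). The transcription factor Irf4 went the other way without passing, from 3.495 to 4.69 CPM in control to 4.90 to 6.94 in succinate libraries (0.61 ± 0.24, unadjusted p = 0.0232). Arg1, the arginase that marks alternative macrophages, had 26 counts over the 6 libraries, 16 in control and 10 in succinate, and Retnla had 0, so both were below the level needed for a test.

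Hif1a itself had 220, 237 and 224 CPM in control and 257, 201 and 180 CPM in succinate replicates 1 to 3. Replicate 1 of the succinate group was above all controls and its replicates 2 and 3 below them (-0.10 ± 0.13, interval from -0.37 to 0.18). The prolyl hydroxylases had overlapping groups: Egln1 had 33.3 to 49.7 CPM in control and 33.9 to 52.3 in succinate libraries, and Egln3 had 11.7 to 13.9 and 9.22 to 15.02. Of 25 tested Hif-1 targets outside glycolysis, 0 passed, and 15 were fitted above and 10 below 0. Vegfa, the endothelial growth factor, had 128 to 136 CPM in control and 104 to 150 in succinate libraries (-0.07 ± 0.14). Bhlhe40, a transcriptional repressor, had 483 to 543 CPM in control and 424 to 442 in succinate libraries, with no overlap (-0.25 ± 0.11, unadjusted p = 0.0464). Among 23 glycolysis genes, 16 were fitted above and 7 below 0, with a median of 0.045, and 0.021 without replicate 2 of the succinate group. The glucose transporter Slc2a1 had 70.3 to 76.1 CPM in control libraries and 96.8, 99.4 and 54.2 in succinate replicates 1 to 3, and the lactate dehydrogenase Ldha had 218 to 230 CPM in control and 184 to 236 in succinate libraries (-0.04 ± 0.14).

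**Figure D2:**
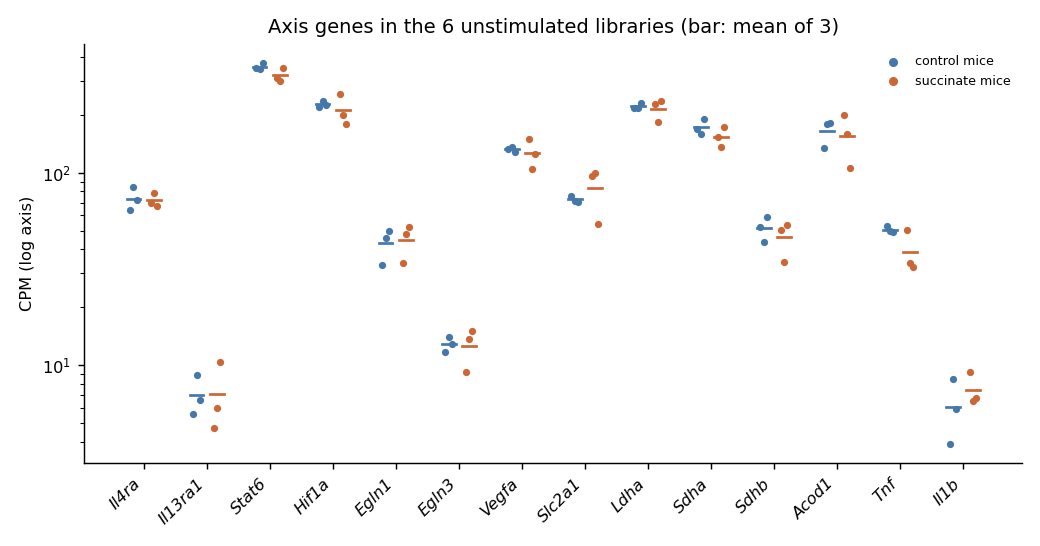
Level of 14 genes of succinate use, the IL-4 receptor, Hif-1 and inflammation in each of the 6 unstimulated libraries (CPM, log axis). Blue points are control and orange points succinate libraries, 1 point per library, and the bar is the mean of 3. The points of the groups overlap in all 14 genes.

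The 2-oxoglutarate dioxygenases, which include the Tet enzymes that oxidise methylcytosine and the Kdm enzymes that demethylate histones, were mostly fitted above 0 without a call. All 28 were tested, 0 passed, 23 were fitted above and 5 below 0, and the median was 0.080. The median was 0.0049 without replicate 2 of the succinate group. Kdm3a had 102 to 115 CPM in control and 102 to 141 in succinate libraries (0.21 ± 0.14), and Jmjd6, a lysine hydroxylase, had 31.4 to 38.1 and 33.6 to 51.3 (0.25 ± 0.14). Of 44 nuclear-encoded genes of the respiratory chain, 0 passed, 40 were fitted below 0 and the median was -0.13. Without the same library the median was 0.020, on the other side of 0. Uqcrq, a subunit of complex III, had 89.4, 64.7 and 76.5 CPM in control and 70.3, 40.2 and 60.0 CPM in succinate replicates 1 to 3 (-0.44 ± 0.20, unadjusted p = 0.0445). Of 12 mitochondrially encoded genes tested, 0 passed and 10 were fitted below 0. Their share of all counts was 0.960 ± 0.0499% in control and 0.962 ± 0.059% in succinate libraries (exact two-sided permutation p = 0.9).

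Of 35 tested cytokines and chemokines, 0 passed and the median was 0.035, and 0.12 without replicate 2 of the succinate group. Tnf had 52.7, 50.01 and 49.3 CPM in control and 50.4, 34.1 and 32.2 CPM in succinate replicates 1 to 3, with replicate 1 inside the control range (-0.38 ± 0.18, unadjusted p = 0.0475). Il1b had 3.88 to 8.48 CPM in control and 6.48 to 9.16 in succinate libraries (0.29 ± 0.48), and the interval from -0.72 to 1.31 shows that this low gene was poorly resolved. Il10 was under 1 CPM in all 6 libraries. The acute-phase gene Saa3 had 1.25 to 2.31 CPM in control and 2.45 to 3.70 in succinate libraries, apart but not called (0.88 ± 0.35, unadjusted p = 0.0249). It was the 1 member apart and higher, and 2 were apart and lower, beside 3.65% and 4.27% of all genes. Both lower members were named after their values were seen. The growth factor Csf1 had 929 to 1059 CPM in control and 821 to 866 in succinate libraries (-0.25 ± 0.18). The interleukin 1 receptor antagonist Il1rn had 632 to 687 and 338 to 559 CPM (-0.48 ± 0.23, unadjusted p = 0.0564). Of 45 interferon-stimulated genes, 18 were fitted above and 26 below 0, and 0 passed. Of 37 genes of Toll-like receptor 4 signalling and its feedback, 0 passed and the median was -0.0044, and -0.020 without replicate 2 of the succinate group. Atf3, a repressor induced by stress and by this receptor, had 356 to 386 CPM in control and 217 to 312 in succinate libraries, with no overlap (-0.47 ± 0.21, unadjusted p = 0.04).

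Single stress and proliferation genes had groups apart. Fosb, an immediate early transcription factor, had 2.55, 1.74 and 1.19 CPM in control and 5.93, 7.18 and 2.56 CPM in succinate replicates 1 to 3 (1.51 ± 0.53, unadjusted p = 0.0123). The lowest succinate library is only just above the highest control. The chaperone Hspa8 had 1011, 1191 and 1135 CPM in control and 1423, 1414 and 1504 CPM in succinate replicates 1 to 3, a clear gap with a small difference (0.38 ± 0.14, unadjusted p = 0.0157). Of 23 immediate early and heat shock genes, 14 were fitted above and 9 below 0, and 0 passed. Their median was 0.13, 0.13 without replicate 2 of the succinate group, and -0.031 without replicate 1 of that group. The licensing helicase subunit Mcm4 had 71.0 to 81.1 CPM in control and 86.2 to 108 in succinate libraries (0.33 ± 0.13), and the cyclin Ccnd2 2.66 to 5.55 and 5.76 to 7.995 (0.71 ± 0.31). Among the 32 cell cycle genes, 4 were apart and higher and 0 apart and lower, beside 3.65% and 4.27% of all genes. In that list 0 passed, and 19 were fitted above and 13 below 0. The list median was 0.0227, and 0.0235 without replicate 2 of the succinate group. The mitotic kinase Ttk, which is not in that list, was apart and lower. It had 23.7 to 28.3 CPM in control and 17.3 to 21.5 in succinate libraries (-0.43 ± 0.14, unadjusted p = 0.0076).

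The protein-coding genes with the smallest p among those whose groups did not overlap are given as values, since the selection used the same comparison. On the higher side, 15 genes had differences from 0.46 to 1.57 and unadjusted p from 0.000983 to 0.00926. They included Myo1e, a motor protein of the cell membrane, with 0.810, 0.842 and 0.998 CPM in control and 2.41, 2.98 and 2.503 in succinate replicates 1 to 3 (1.57 ± 0.38). The ubiquitin ligase Trim16 had 26.3 to 31.9 CPM in control and 35.3 to 49.7 in succinate libraries (0.49 ± 0.13). The inhibitory receptor Lag3 was at 0.289 to 0.686 CPM in control and 0.967 to 1.46 in succinate libraries.

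On the lower side, 15 genes had differences from -2.25 to -0.34 and unadjusted p from 0.000405 to 0.00801. The G protein gamma subunit Gng4 had 1.04, 1.08 and 0.998 CPM in control and 0.235, 0.292 and 0.114 CPM in succinate replicates 1 to 3 (-2.25 ± 0.49). Nt5e, the ectoenzyme CD73 that makes adenosine outside the cell, had 15.5 to 16.3 CPM in control and 5.54 to 11.2 in succinate libraries (-0.86 ± 0.25). The adhesion molecule Vcam1 had 105 to 134 and 86.7 to 98.6 (-0.40 ± 0.13). The cytokine Tnfsf12 had 36.2 to 41.9 and 26.6 to 30.8 (-0.43 ± 0.12), and the growth factor Igf1 had 1.98 to 3.93 and 0.817 to 1.23 (-1.28 ± 0.40). All 30 genes had an adjusted p of 0.958.

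Libraries with the same replicate number deviated from their group means together, and with that number as a block in the 6 resting libraries 6 genes passed. This paired fit called 1 gene higher (0.00753% of 13286) and 5 lower (0.0376%), with 1135 genes at an unadjusted p below 0.05 (8.54%). The 6 are named because of these calls, after their values were seen. With the block fitted to all 12 libraries, 1 gene was higher (0.00698% of 14324), Gm10705 with an adjusted p of 0.00211, and 0 were lower.

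Il7r, the receptor chain for interleukin 7 and thymic stromal lymphopoietin (chr15:9505788-9530176, minus strand), had 196, 191 and 177 CPM in control and 115, 101 and 134 CPM in succinate replicates 1 to 3. All succinate libraries were below all controls, and the paired difference was -0.70 ± 0.11 (edgeR adjusted p = 0.0182). Sgk1, a kinase induced by serum and glucocorticoids (chr10:21882184-21999903, plus strand), had 363, 279 and 302 CPM in control and 245, 140 and 210 CPM in succinate replicates 1 to 3. Its groups were apart too, with a paired difference of -0.70 ± 0.11 (adjusted p = 0.0182). Spp1, which encodes the secreted matrix protein osteopontin (chr5:104435118-104441050, plus strand), had 2427, 1700 and 2007 CPM in control and 1335, 947 and 1586 in succinate replicates 1 to 3 (paired -0.69 ± 0.12, adjusted p = 0.0455). Anpep, the surface aminopeptidase CD13 (chr7:79821803-79861059, minus strand), had 64.6, 65.6 and 71.0 CPM in control and 38.9, 42.3 and 50.2 in succinate replicates 1 to 3 (paired -0.62 ± 0.11, adjusted p = 0.0453). For each of these 4 protein-coding genes all succinate libraries were below all controls, so each is lower in all 3 pairs under any pairing. The paired fit picked them from these same libraries, so these directions are no separate evidence. Over all tested genes, 4.27% were apart and lower. Each had an edgeR adjusted p of 0.958 without the block, and of 0.862 with the block fitted to all 12 libraries. Without replicate 2 of the succinate group and without the block, their differences were -0.59 for Il7r, -0.47 for Sgk1, -0.49 for Spp1 and -0.59 for Anpep.

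The other two genes are pseudogenes, whose reads can come from near-identical copies, so their counts are uncertain. Gm10705 (chr3:87207545-87208005, minus strand) had 4.11, 1.44 and 3.43 CPM in control and 16.04, 8.05 and 15.99 CPM in succinate replicates 1 to 3 (paired 2.19 ± 0.21, adjusted p = 2.52e-05). With LPS the level was 8.83 ± 2.83 CPM in control and 5.65 ± 1.63 in succinate libraries, a difference on the other side of 0 (-0.64 ± 0.35). Gm2260 (chr14:26016431-26025837, plus strand) had 3.99, 30.1 and 23.2 CPM in control and 2.29, 5.84 and 1.25 CPM in succinate replicates 1 to 3 (paired -2.48 ± 0.36, adjusted p = 0.00742). Its groups overlapped, and replicate 1 of the control group was far below the other controls.

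**Figure D3:**
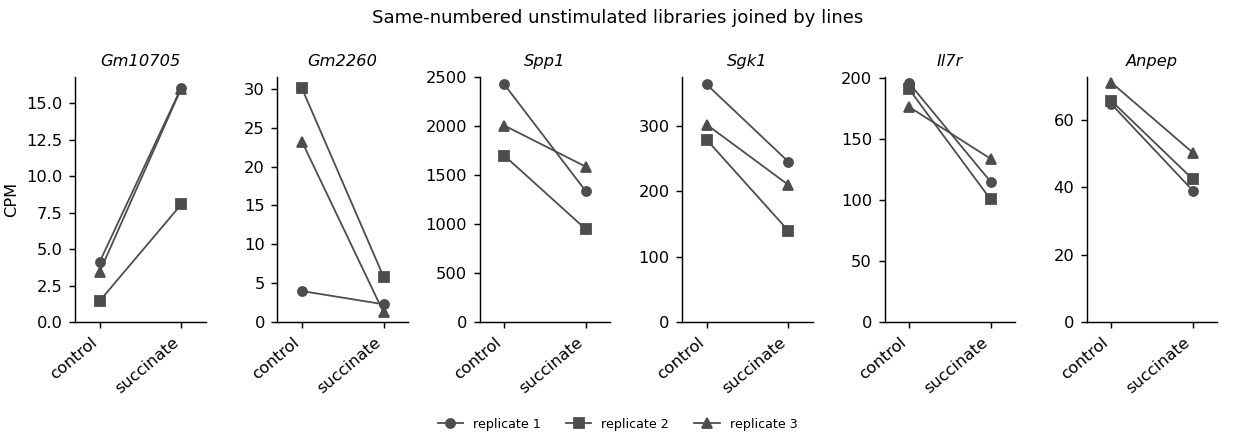
Level (CPM, axes from 0) of the 6 genes that passed with the replicate number as a block, in control and succinate libraries without LPS. Lines join libraries with the same replicate number. In Il7r, Sgk1, Spp1 and Anpep all 3 lines go down, and in Gm10705 all 3 go up. The groups of these genes do not overlap, so any pairing would give the same directions. The genes were picked by the fit of these same libraries, so the directions are no separate evidence.

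RefSeq (GRCm38.p6) promoter windows were available for the 4 protein-coding genes of the paired fit. Since the series addresses Hif-1 alpha and IL-4 receptor alpha, the 250 bases before each start site were searched on both strands for the Hif core ACGTG and the Stat6 motif (a palindrome of TTC and GAA around a spacer of N bases). Of the 10 windows, 1 held the Hif core and 0 held the Stat6 motif, while among all 32851 mouse windows of that length 16.6% held the Hif core and 5.85% the Stat6 motif. The window with the match is 1 of 6 start sites of Sgk1, at chr10:21993640-21993889 on the plus strand, and it is shown 5′ to 3′ with the match in capitals, where the motif reads on both strands and overlaps itself.
Sgk1 window: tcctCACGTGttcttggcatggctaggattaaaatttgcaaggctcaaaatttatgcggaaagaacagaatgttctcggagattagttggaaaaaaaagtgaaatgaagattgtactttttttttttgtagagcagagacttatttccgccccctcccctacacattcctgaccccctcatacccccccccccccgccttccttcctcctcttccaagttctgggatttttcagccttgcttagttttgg

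Of 26 lysosomal genes tested, 0 passed, 22 were fitted below and 4 above 0, and 7 were apart and lower against 4.27% of all genes. Their median was -0.18, and -0.10 without replicate 2 of the succinate group. Gpnmb, a membrane glycoprotein of lysosomes, had 7819, 6884 and 8468 CPM in control and 5313, 4023 and 6469 CPM in succinate replicates 1 to 3. The groups were apart (-0.55 ± 0.22, unadjusted p = 0.0223, adjusted p = 0.958), and the difference was -0.39 without succinate replicate 2. Atp6v0d2, a subunit of the proton pump that acidifies lysosomes, had 7.24 to 9.14 CPM in control and 3.91 to 5.63 in succinate libraries (-0.75 ± 0.25). With LPS, in other libraries, the median of the same list was -0.36.

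Several marker lists had sums that did not overlap between the groups. Summed over 19 genes, Ly6C-high monocyte markers had 15160, 14370 and 14850 CPM in control and 13350, 10540 and 12520 in succinate replicates 1 to 3, so the groups were apart (exact two-sided permutation p = 0.1, the smallest that 3 against 3 libraries allow). Lyz2, the lysozyme, which took more of that sum than any other member, had 5858 ± 383 CPM in control and 4686 ± 1265 in succinate libraries, and its groups overlapped. Of these 19 genes, 4 were fitted above and 15 below 0, 0 passed, and 0 had groups apart in either direction, beside 3.65% and 4.27% of all genes. Their median was -0.12, and -0.048 without replicate 2 of the succinate group. The 16 B cell markers summed to 195 ± 10.5 CPM in control and 261 ± 32.6 in succinate libraries (exact p = 0.1). Of 13 tested, 12 were fitted above 0 and 5 were apart and higher, against 3.65% of all genes, and the median was 0.58, and 0.67 without replicate 2 of the succinate group. Ighm, the heavy chain of IgM, made up most of the sum at 128 ± 9.81 and 177 ± 32.0 CPM, and without it the sums were 66.6 ± 8.99 and 83.9 ± 13.3 CPM (exact p = 0.2). Ighd, the heavy chain of IgD, had 0.984 to 1.74 CPM in control and 2.35 to 3.76 in succinate libraries. In bulk RNA, more cells of a type and more RNA per cell cannot be told apart.

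The summed T and NK cell markers, which include Il7r, were 214 ± 9.64 CPM in control and 141 ± 19.9 in succinate libraries (exact p = 0.1). Without Il7r they were 25.6 ± 1.20 and 24.8 ± 3.31 (exact p = 0.8). The T cell receptor genes Cd3d and Cd3e had 18 and 9 counts over the 6 libraries. Of 5 T and NK markers tested, 3 were fitted above and 2 below 0. Their median was 0.40, 0.46 without replicate 2 of the succinate group, and -0.13 with a filter of 1 CPM in 6 libraries. Macrophage markers summed to 339 ± 31.4 and 280.1 ± 34.6 CPM, dendritic cell markers to 66.0 ± 4.11 and 74.6 ± 3.18, and markers of eosinophils, basophils and mast cells to 22.9 ± 1.67 and 27.8 ± 2.23, all with an exact p of 0.1. Of 9 macrophage markers tested, 4 were fitted above and 5 below 0. Their median was -0.26, -0.097 without replicate 2 of the succinate group, and 0.12 with a filter of 1 CPM in 6 libraries. Vcam1 alone had 121 ± 15 and 91.9 ± 6.11 CPM of the macrophage sum. Of 14 dendritic cell markers tested, 9 were fitted above and 5 below 0. Of 10 markers of eosinophils, basophils and mast cells tested, 7 were fitted above and 3 below 0. Neutrophil markers, 20 genes, summed to 14060 ± 3070 and 12590 ± 1831 CPM (exact p = 0.6), and progenitor markers were at 3482 ± 507 and 3500 ± 840 (exact p = 1). The part of these shifts in the gene differences was not tested.

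**Figure D4:**
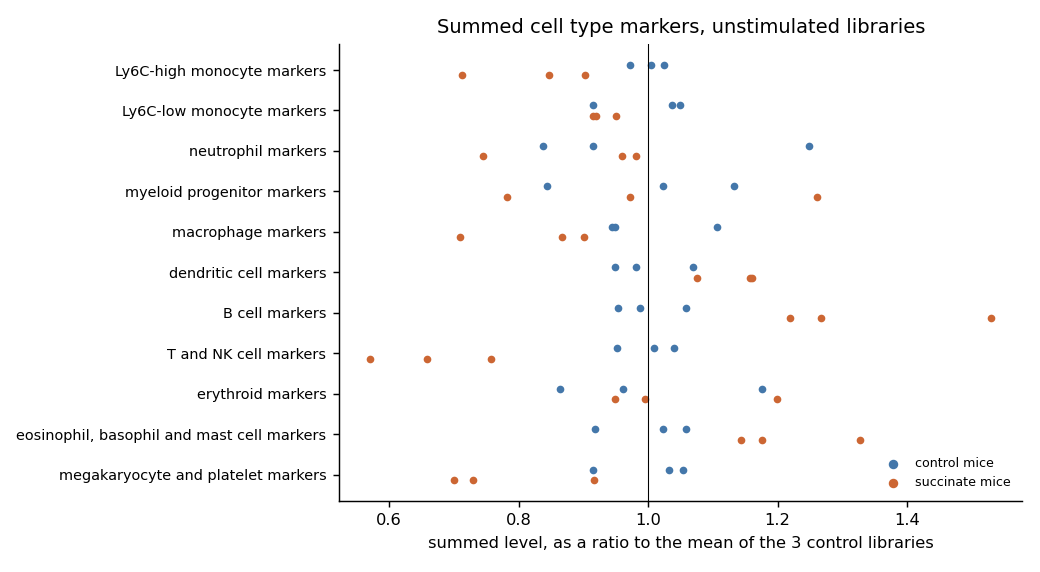
Summed level of each list of cell type markers in each unstimulated library, as a ratio to the mean of the 3 control libraries. Blue points are control and orange points succinate libraries. In the 3 succinate libraries, B cell markers, dendritic cell markers, and eosinophil, basophil and mast cell markers lie above all controls. Ly6C-high, macrophage, and T and NK markers lie below, and without Il7r the T and NK sums overlap.

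Over all 37 gene lists, 707 distinct genes were tested and 0 passed. Of them 37 (5.23%) had an unadjusted p below 0.05, beside 3.73% of all genes, and 51 (7.21%) had groups apart, beside 7.92%. The median of the 40 ribosomal protein genes was 0.020 with all differences between -0.25 and 0.12, and their share of counts was 3.42 ± 0.362% in control and 3.52 ± 0.591% in succinate libraries (exact p = 0.8). Medians near 0 were also found for cholesterol synthesis and uptake (-0.00036, 23 genes), genes of the integrated stress and unfolded protein responses (-0.00098, 19 genes) and iron and heme genes (-0.019, 14 genes). Antigen presentation had a median of -0.10 over 20 genes, and phagocyte oxidase and Fc receptor genes had -0.19 over 16. Without replicate 2 of the succinate group these medians were 0.14 for ribosomal protein genes, 0.0073 for cholesterol synthesis and uptake, -0.0093 for the stress responses, -0.070 for iron and heme, -0.011 for antigen presentation and -0.087 for phagocyte oxidase and Fc receptor genes. Cybb, the catalytic subunit of the phagocyte oxidase, had 930 to 1054 CPM in control and 808 to 883 in succinate libraries, with no overlap (-0.26 ± 0.13, unadjusted p = 0.0576).

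**Figure D5:**
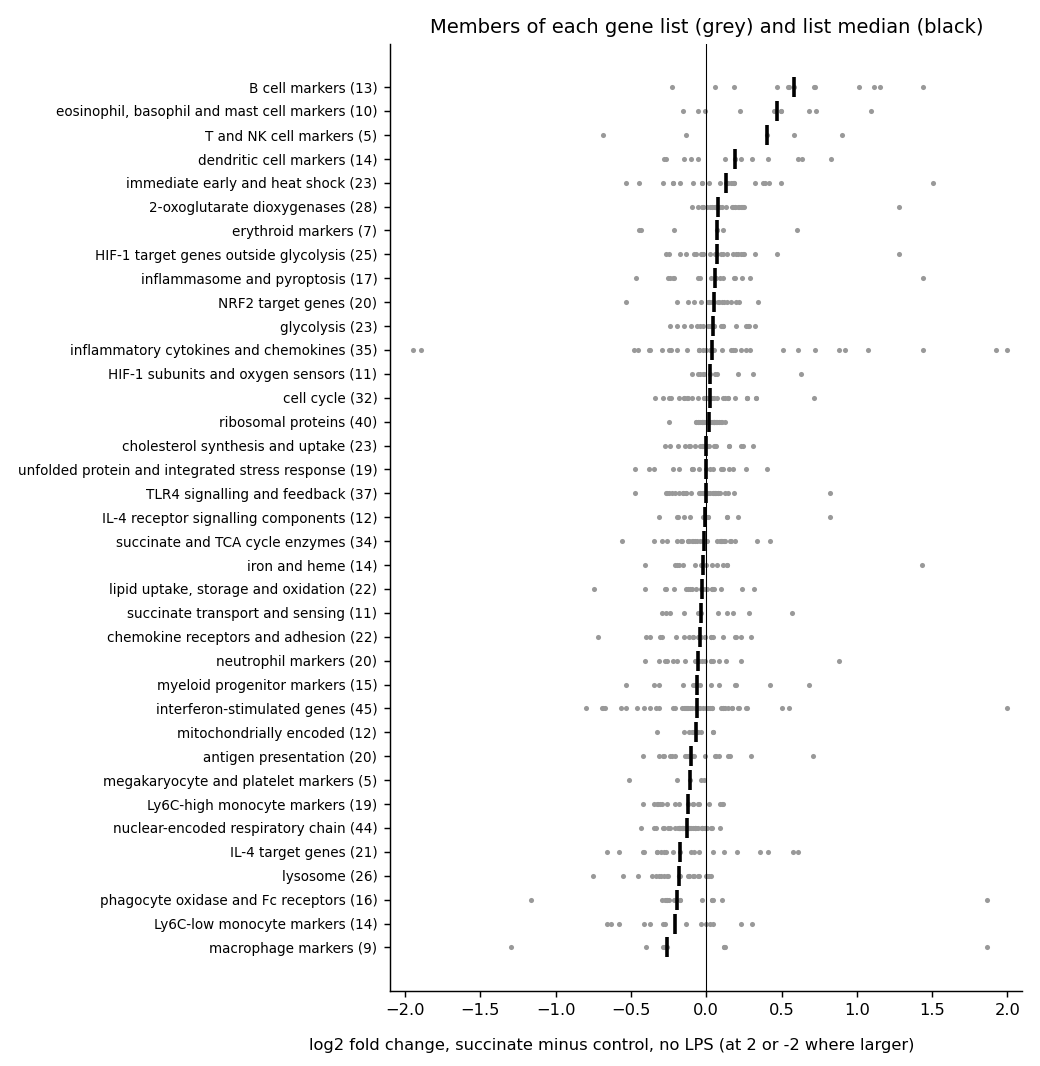
Log2 fold change of each tested member (grey points) of the 37 gene lists, with the number tested in brackets and the list median as a black bar, succinate minus control without LPS. Points beyond 2 or -2 are drawn at that value. Lists are ordered by median, most medians lie within 0.2 of 0, and no member passed the test.

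The same contrast after 4 h of LPS, in the other 6 libraries, called 0 genes higher and 9 lower (0.0628% of 14324): Rps6ka2, Por, Cyp4f18, Rusc2, Slc6a8, Vwf, Fnip2, Zfp503 and Kif1c. At rest all 9 were fitted below 0, from -0.51 to -0.06 with a median of -0.15, and 0 passed. Of all tested genes, 51.3% were fitted above 0 at rest. Vwf, which encodes von Willebrand factor, had 70.2, 66.6 and 61.7 CPM in resting control and 45.4, 37.0 and 56.5 CPM in resting succinate replicates 1 to 3 (-0.51 ± 0.20). With LPS it had 26.5 ± 6.27 CPM in control and 10.4 ± 2.60 in succinate libraries (-1.36 ± 0.21, edgeR adjusted p = 0.0294). The creatine transporter Slc6a8 had 52.3 to 58.8 CPM in resting control and 37.4 to 48.3 in resting succinate libraries (-0.37 ± 0.14), and -0.95 ± 0.14 with LPS (adjusted p = 0.0261). Rps6ka2, a kinase downstream of growth factors, was at -0.06 ± 0.10 at rest and -0.80 ± 0.10 with LPS. The test of the difference between the succinate effects with and without LPS called 0 genes in each direction, with 560 (3.91%) at an unadjusted p below 0.05. The smallest adjusted p of that test was 0.984, so a difference between rest and LPS was not shown for any gene.

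The 4 protein-coding genes of the paired fit had lower fitted levels with LPS as well, without passing there. Il7r had 137 ± 39.0 CPM in control and 64.8 ± 21.2 in succinate libraries with LPS (-1.08 ± 0.22, edgeR adjusted p = 0.0655). Sgk1 had 288 ± 72.3 and 140 ± 26.0 CPM (-1.04 ± 0.22, adjusted p = 0.0655), Anpep 53.0 ± 6.98 and 24.9 ± 11.1 (-1.09 ± 0.23, adjusted p = 0.0659), and Spp1 1232 ± 264 and 724 ± 328 (-0.77 ± 0.27, adjusted p = 0.269). The LPS libraries are other libraries than the resting ones, and whether both sets share mice is not in the labels.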

How the data were processed

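RNA-seq of 12 libraries (4 groups of 3, from the titles) was used. The deposited files hold whole-number read counts per gene for 54532 genes. Per the submitters' processing notes, the authors used Trim Galore and the mm10 build. The aligner, counter, annotation and strand handling were not given in the sources used here. Coordinates are from GENCODE M21 (GRCm38), which held 54495 of the identifiers.

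Counts were tested with edgeR 4.0.16 (R 4.3.3): filterByExpr (14324 genes kept, with at least 99.87% of each library's counts), TMM scaling, 1 mean per group over 12 libraries, quasi-likelihood test, Benjamini-Hochberg adjusted p below 0.05. The fit was tested on simulated data. Alternatives were no filter, a stricter filter (1 CPM in 6 libraries), library size alone, RLE, limma-voom 3.58.1, DESeq2 1.42.0, the 6 resting libraries alone, the replicate number as a block, library class, and leaving out each library. Library class is the level of S100a4, Rpl24 and 3 pseudogenes, low in replicate 1 and high in replicates 2 and 3 of both resting groups. With LPS the class was high in replicate 3 of the control group and low in all other libraries, so it was uneven between those groups.

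The block rests on a check of the data, not on the labels: deviations of same-numbered libraries from their group means correlated at 0.26, 0.12 and 0.20, and those of different numbers at -0.21 to 0.023. Deviations from a group mean cancel within the group, so the values of different numbers follow in part from those of equal numbers. They are no separate evidence for the block. No libraries of a group agreed within sampling noise (chi-square per degree of freedom 6.69 to 39.9).

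Named genes are, per direction, up to 15 of smallest p with groups apart and at least 1 CPM (predicted genes, pseudogenes, ribosomal protein, mitochondrial and immunoglobulin genes left out), up to 3 per list, and genes of interest, of which those that add to the text are given. The comparison and the 37 lists were chosen with earlier results of these data known. Summed markers and shares were compared by exact permutation. Counting limits cover counting error only. Some genes that the rule selects are not reported here.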

Additional observations from a re-analysis of the deposited data

How the results depend on the processing

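The count of genes called between the resting groups was 0 higher and 0 lower, and it was the same with a stricter filter, RLE, library size alone, limma-voom, the 6 resting libraries alone, library class as a covariate, only 1 library class, and each library left out in turn (0 to 0 in each direction). Without a filter, 34 genes were higher and 38 lower of 28563, and 68 of these 72 also pass the filter, while the median prior degrees of freedom of the spread were infinite, against 6.49 with the filter (the cause was not tested). These 72 included Gpnmb, Fosb, Gng4, Myo1e and the 6 genes of the paired fit, and 22 were immunoglobulin genes. DESeq2 called 1 higher. With the replicate number as a block, 1 was higher and 5 lower in the 6 resting libraries, and 1 was higher in all 12. The block changed no other call. Over the 157 named genes and 17 alternatives, 2580 values kept their direction and call, 42 uncalled values changed sign and 22 passed. No scaling moved the median of all genes by over 0.1. Low genes limit the comparison: over all tested genes, the interval lay within 2-fold for 73.9%. A list median with genes at 0 counts in a group set to their bound shifted by at most 0.017.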
